A study of Mus musculus with 32 samples.

Results

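The 10 genes described here encode proteins that build, coat or regulate lipid droplets (Cidea, Cideb, Cidec, Plin2, Plin4, Plin5, Fitm1 and G0s2), the nuclear receptor PPARG (Pparg) and the fatty acid transporter CD36 (Cd36). They were found by their RefSeq identifiers among the 55681 distinct probes of the array. They had 12 probes on 21 spots, since Cidec and Cideb had 2 probes each. In each of the 10, a probe passed the brightness filter (a signal well above background in every mouse of some group), so all were among the 23109 genes tested. The brightest probe stood for each gene.

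Livers came from 32 male wild-type C57BL/6 mice, each on its own 1-colour (Cy3) array. Of these mice, 16 lived alone under a steady cycle of 12 h light and 12 h dark, and 16 lived alone under chronic jet lag, being shuttled from 4 weeks of age between rooms whose lights came on 8 h apart. The labels list no transgene and no agent for any group. The groups were ZT2, ZT10 and ZT18 (zeitgeber time, hours after lights on) at 12 and at 30 weeks of age, with 2 mice per group at ZT2 and 3 at ZT10 and ZT18. The title of the series concerns circadian control of liver metabolism and liver cancer. These comparisons ask how the schedule, the time of day and age bear on these genes. How long before sampling a jet-lagged mouse had last changed rooms is not given in the sources used here.

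Hepatocytes store surplus fatty acid as triglyceride in lipid droplets, a neutral lipid core under a phospholipid monolayer carrying its own proteins. Perilipins cover the surface and govern the access of lipases, CIDE proteins join droplets and enlarge them, and FITM proteins help triglyceride leave the endoplasmic reticulum into droplets. PPARG pairs with a retinoid X receptor on direct repeats of a hexamer. It is abundant in fat tissue and sparse in lean liver, and its level and those of targets such as Cidec, Plin4 and Cd36 are known to be raised in fatty mouse liver.

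RefSeq promoter windows (build GRCm38.p6, 250 bases before to 50 after a start) were held for 9 of the 10 genes, 13 windows in all. Cidea was not among them. They were searched on both strands for 2 copies of AGGTCA in the same orientation with 1 base of any kind between, the letters of a PPAR element. With up to 2 mismatches in the 12 fixed bases, Plin2 and Cd36 each held 1 match, on the reverse strand. Of all 32851 windows 3.86% held such a match, and 0.0396% held an exact copy, none of them a window of these genes. The pair is shown because Plin2 and Cd36 were the genes with a match. Capitals mark the match and, at the end of the Plin2 stretch, the first letters of a CACGTG (E-box) that runs across the start. Of all windows 7.15% held CACGTG, and Plin2 was the only one of these genes with it. The stretches are the bases before the start, 5′ to 3′ on the gene's strand, Plin2 at chr4:86670060-86670309 and Cd36 at chr5:17835897-17836146, both on the minus strand.
Plin2: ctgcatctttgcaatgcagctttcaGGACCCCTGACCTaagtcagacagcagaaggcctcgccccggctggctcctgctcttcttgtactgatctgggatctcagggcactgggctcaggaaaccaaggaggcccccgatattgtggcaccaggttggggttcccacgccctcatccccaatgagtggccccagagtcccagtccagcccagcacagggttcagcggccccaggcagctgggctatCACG
Cd36: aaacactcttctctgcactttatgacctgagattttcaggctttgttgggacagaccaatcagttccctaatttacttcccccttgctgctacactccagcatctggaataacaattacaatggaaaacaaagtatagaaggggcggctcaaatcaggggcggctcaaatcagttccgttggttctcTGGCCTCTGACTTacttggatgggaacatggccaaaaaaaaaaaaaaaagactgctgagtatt
A match describes letters only and says nothing of binding in these livers.

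Levels below are log2 values relative to the array's 75th percentile of signal, so that 0 is the brightness which 75% of probes do not exceed. They compare mice for the same probe, not genes with each other. Between arrays, 43.4% to 58.1% of probes were well above background and the 75th percentile of signal lay between 111.3 and 269.3. The hepatocyte markers (8 of 8 tested) had a mean level of 8.62 to 9.27 in every liver. Markers of other tissues varied far more. The mean level of 14 tested skeletal muscle markers ran from -4.62 to 3.59, that of 4 tested fat tissue markers from -2.55 to 1.74, and that of 8 tested pancreatic acinar markers from -2.18 to 4.74. Of the brown fat markers 2 of 4 were tested (Cox7a1 and Cox8b, which muscle also expresses), with a mean level of -1.50 to 3.68. Among the fat markers Adipoq was well above background in 23 of 32 livers, Plin1 in 8 and Lep in 4, and the brown fat gene Ucp1 in 2. Macrophage markers (10 of 10 tested; Pparg and Cd36 are also macrophage genes) kept a mean level of 2.59 to 4.00. Plin4, Plin5 and Fitm1 are also muscle genes, Cidea is also a brown fat gene and Cidec also a white fat gene, so these levels are given beside the results they touch. In a whole liver, fewer cells of a type and less RNA per cell cannot be told apart.

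**Figure D1:**
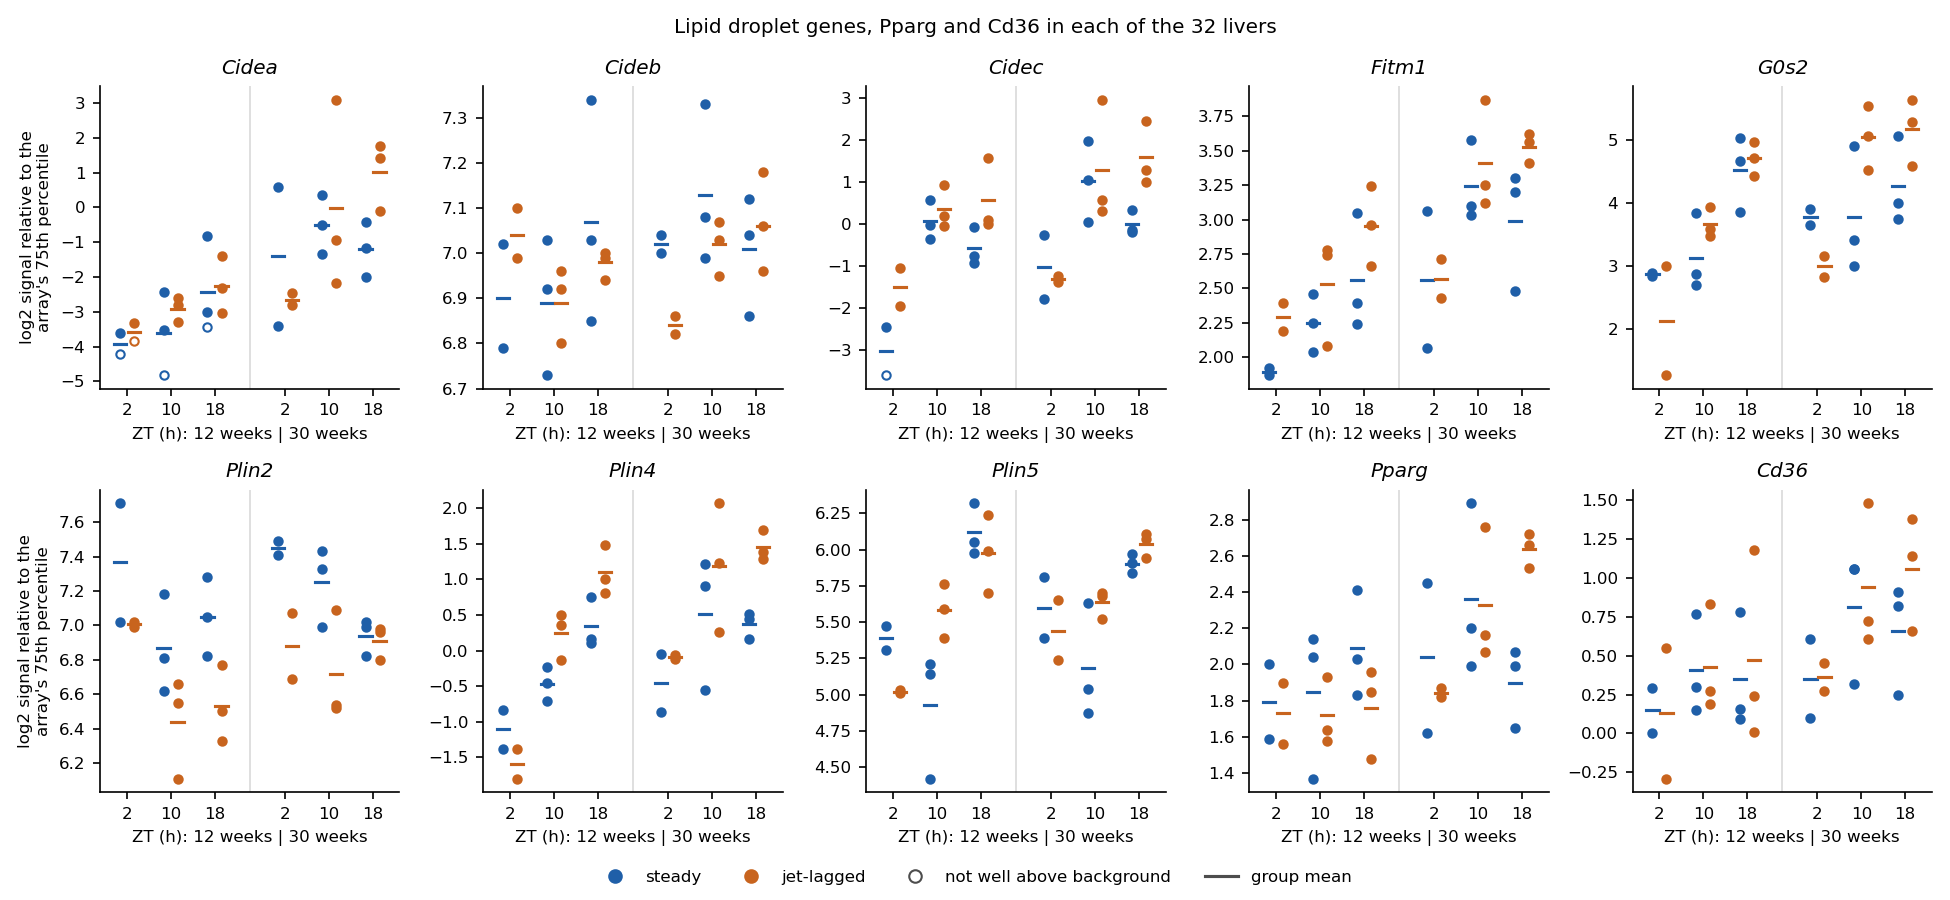
Log2 signal of each gene relative to the array's 75th percentile, 1 point per mouse, by time of day (ZT, h) at 12 weeks (left of each panel) and 30 weeks (right), with the steady schedule in blue, chronic jet lag in orange, a short line at each group mean and open points for signals not well above background. Cidea runs from -4.82 to 3.09 over the 32 livers while Cideb stays between 6.73 and 7.34. Each panel has its own scale.

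Across the 12 groups some genes kept a narrow range and others varied widely. Cideb, the CIDE protein of hepatocytes known for its part in loading VLDL, spanned only 0.61 log2 units over the 32 livers, with group means from 6.84 ± 0.03 (SD, n = 2) to 7.13 ± 0.18 (SD, n = 3). Cidea, which promotes droplet fusion in brown fat and in fatty liver, spanned 7.92, and Cidec, which enlarges droplets by passing lipid between them, spanned 6.56. For 7 of the 10 genes (Cidea, Cidec, Plin4, Fitm1, G0s2, Pparg and Cd36) the highest group mean was that of jet-lagged mice at ZT18 and 30 weeks. Cidea averaged 1.02 ± 1.00 (SD, n = 3) there and -3.92 ± 0.43 (SD, n = 2) in the lowest group, steady mice at ZT2 and 12 weeks. Neighbours in the order of group means mostly could not be separated. For each gene at least 10 of the 11 pairs of neighbouring groups had overlapping ranges.

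Cidea was well above background in 28 of 32 livers and the main Cidec probe in 31, so their lowest values lie near the detection limit, which fell between -4.65 and -2.87 depending on the array. The 2 Cidec probes correlated at r = 0.714 over the 32 arrays, and the 2 Cideb probes, whose values hardly varied, at r = 0.370. The second Cidec probe was well above background in 28 livers.

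The schedules were first compared over the mean of the 3 times. Plin2, the main perilipin of hepatocytes and a gene whose protein is stable only on droplets, was lower under jet lag at both ages and was the only one of the 10 to pass. At 12 weeks its level in steady mice was lowest at 6.62, with a median of 7.04 and a highest value of 7.71, and in jet-lagged mice these values were 6.11, 6.61 and 7.02. The ranges overlapped, with the jet-lagged values lower on the whole. The fitted change was -0.44 ± 0.11 (SE, n = 8 against 8), 1.35-fold lower under jet lag, with an adjusted p of 0.0236 in limma. At 30 weeks steady mice ranged from 6.82 to 7.49 around a median of 7.18 and jet-lagged mice from 6.52 to 7.09 around 6.88, a change of -0.37 ± 0.11 (adjusted p = 0.0408). Of all genes, 4.44% passed at 12 weeks and 6.25% at 30 weeks, so 1 of 10 is near the background at either age.

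By time, the Plin2 difference was -0.38 ± 0.23 at ZT2, -0.34 ± 0.18 at ZT10 and -0.59 ± 0.18 at ZT18 at 12 weeks, and -0.52 ± 0.23, -0.61 ± 0.18 and 0.01 ± 0.18 at 30 weeks. At 30 weeks and ZT18 the jet-lagged livers read 6.80, 6.96 and 6.98 and the steady ones 6.99, 6.82 and 7.02, the same band. Its interaction of schedule with time did not pass at either age (adjusted p = 0.845 and 0.41). On the 4 slides that held a mouse of each schedule at the same time and age, the jet-lagged minus steady difference was 0.04 at ZT10 and -0.49 at ZT18 at 12 weeks, and -0.91 at ZT10 and 0.16 at ZT18 at 30 weeks. The 12-week call was lost without mouse 1 of the steady ZT2 group (-0.33, adjusted p = 0.124) or mouse 2 of the jet-lagged ZT2 group, with muscle and acinar markers as covariates (-0.42, adjusted p = 0.0522) and without the slide block (-0.43, adjusted p = 0.08). The 30-week call was lost in 13 of 32 fits that left out 1 mouse, and in the authors' deposited table the difference was -0.24 (adjusted p = 0.15). At 30 weeks Plin4 passed in place of Plin2 with normexp, another background correction,, and G0s2 did with the ZT2 mice left out.

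The other 9 genes did not pass either schedule comparison, and 8 of the 10 had a positive estimate at each age. Cidec had the largest difference at 12 weeks, 1.03 ± 0.34 (95% CI 0.32 to 1.74, adjusted p = 0.0859). Plin4, a perilipin of small, newly formed droplets, had the largest at 30 weeks, 0.72 ± 0.23 (95% CI 0.24 to 1.19, adjusted p = 0.0645). The second Cidec probe did not show the 12-week difference at every time. Its means at ZT2, ZT10 and ZT18 were -2.95, -2.52 and -3.25 in steady mice and -4.57, -2.2 and -2.42 under jet lag. It was thus lower under jet lag at ZT2, with no jet-lagged liver well above background, and higher at ZT10 and ZT18. Pparg differed by -0.17 ± 0.15 at 12 weeks and by 0.17 ± 0.15 at 30 weeks, with intervals of -0.49 to 0.14 and -0.15 to 0.48. Cd36, which takes up long-chain fatty acids, differed by 0.06 ± 0.19 and 0.17 ± 0.19. Cideb differed by 0.00 ± 0.06 and -0.08 ± 0.06, the narrowest intervals of the 10 (-0.12 to 0.13 and -0.20 to 0.04). These are for its brightest probe. At 12 weeks the second Cideb probe was lower under jet lag at each time, with means of 4.22, 4.48 and 4.5 against 4.6, 4.61 and 4.65. At 30 weeks its means were 4.57, 4.55 and 4.65 under jet lag and 4.53, 4.69 and 4.63 in steady mice. This probe was not tested on its own. The median difference over the 10 genes was 0.06 at 12 weeks and 0.21 at 30 weeks, against 0.03 and -0.02 over all genes tested.

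**Figure D2:**
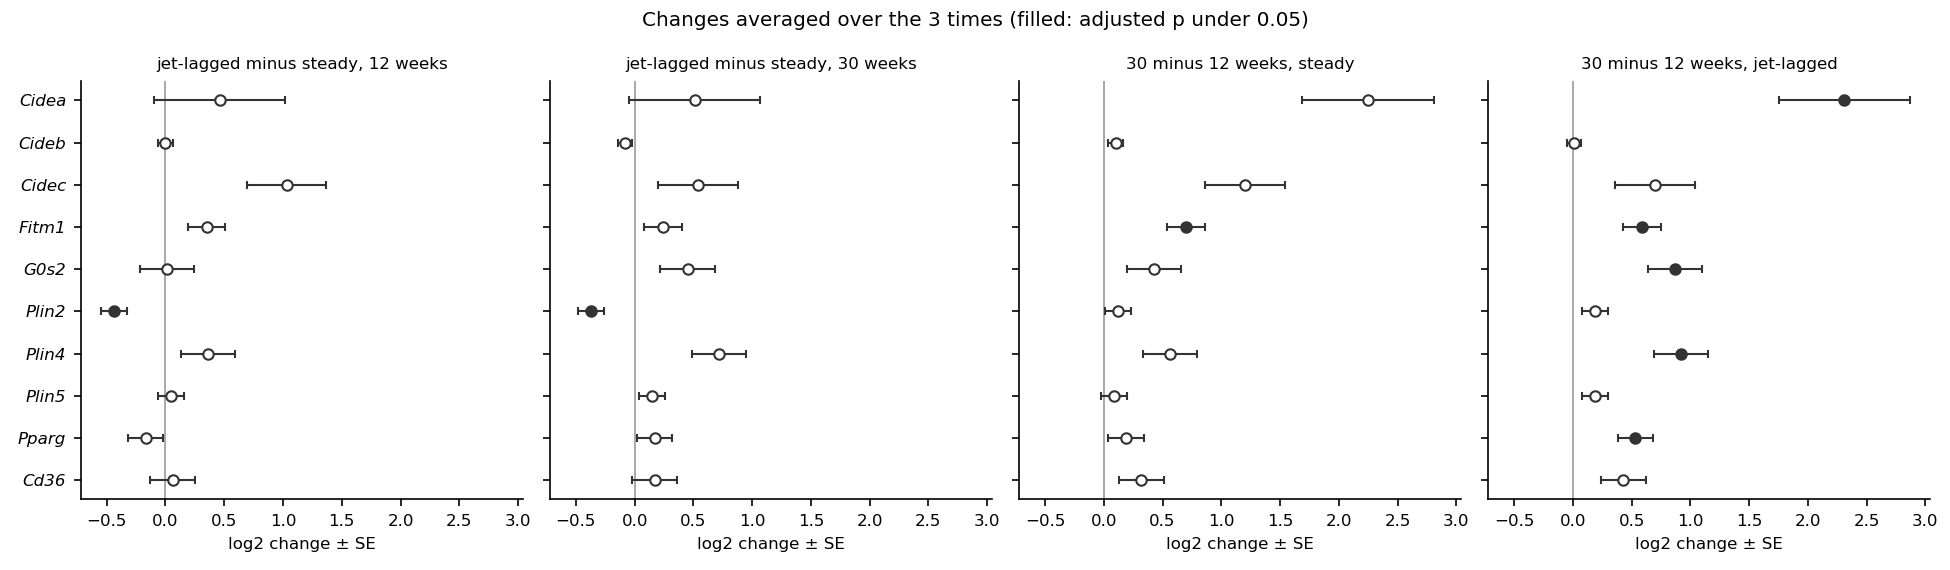
Log2 change with its SE (bars) for each gene in the comparisons of jet-lagged with steady mice at each age and of 30 with 12 weeks in each schedule, each averaged over the 3 times. Filled points passed at an adjusted p under 0.05: Plin2 in both schedule comparisons, Fitm1 in both age comparisons, and Cidea, G0s2, Plin4 and Pparg in the jet-lagged age comparison.

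At single times 0 of the 10 genes passed the comparison of schedules in limma, at either age. Of all genes 0.255% passed at ZT2, 1.71% at ZT10 and 2.83% at ZT18 at 12 weeks, and 1.36%, 0.736% and 3.47% at 30 weeks. At an unadjusted p under 0.05 there was 1 of 10 at each time at 12 weeks, where 2692, 3902 and 3831 of all 23109 genes met that limit. At 30 weeks there were 1, 3 and 6 of 10, where 2896, 2839 and 3812 of all genes met it. The closest to passing was Plin5, the perilipin of oxidative tissues that links droplets to mitochondria, at ZT10 and 12 weeks. The steady livers read 5.21, 5.14 and 4.42 and the jet-lagged livers 5.39, 5.59 and 5.76, which did not overlap (jet-lagged above steady, as in 9.73% of genes), with a difference of 0.71 ± 0.19 (adjusted p = 0.0615). The muscle markers of the same groups did not overlap either, at -2.18, -2.17 and -4.62 in steady and -0.46, 0.5 and 1.3 in jet-lagged mice. Their part in this Plin5 difference was not tested.

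At ZT18 and 30 weeks all 10 estimates were positive, with a median of 0.68 against -0.01 over all genes, and in 5 genes every jet-lagged liver lay above every steady one, where 13.3% of the 23099 genes with a value in every mouse of both groups did so. Cidec read 1.28, 1.01 and 2.46 under jet lag and -0.14, -0.18 and 0.33 in steady mice, a difference of 1.63 ± 0.58 (adjusted p = 0.132). Cidea read 1.41, -0.12 and 1.77 against -1.18, -2.0 and -0.41, a difference of 2.41 ± 0.96 (adjusted p = 0.187). Plin4 read 1.39, 1.29 and 1.70 against 0.51, 0.16 and 0.45. The gap of Plin4 was wider than the spread within either group, at 1.07 ± 0.39 (adjusted p = 0.136). Pparg read 2.66, 2.53 and 2.72 under jet lag and 2.07, 1.65 and 1.99 in steady mice, a difference of 0.76 ± 0.26 (adjusted p = 0.109). Fitm1, the muscle member of the FITM proteins, read 3.56, 3.41 and 3.62 against 3.20, 2.48 and 3.30, a difference of 0.59 ± 0.28 (adjusted p = 0.287). None of the 5 passed over all genes.

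At that time the muscle markers lay between -0.90 and 3.45 in jet-lagged mice and between 0.51 and 2.24 in steady mice, and the fat markers between -0.83 and 1.19 and between 0.10 and 0.43. The brown fat markers read 3.42, 3.09 and 0.55 under jet lag and 2.30, 1.74 and 2.53 in steady mice, with Ucp1 not well above background in any of the jet-lagged mice. The macrophage markers did not overlap between the schedules, at 3.61, 3.91 and 4.00 against 2.97, 3.18 and 3.56, with a median change of 0.49 over the 10 markers, of which 0 passed. Their part in the Pparg and Cd36 differences was not tested. The jet-lagged mouse with the highest Cidea and Cidec of its group (1.77 and 2.46) had the lowest muscle level (-0.90) and the lowest fat level (-0.83) of that group. Of its fat markers, Adipoq (-4.00), Plin1 (-5.57) and Lep (-3.87) were not well above background, and Retn (-2.96), Cfd (1.77) and Fabp4 (1.85) were. On the slide that held this mouse beside a steady mouse of the same time and age, the jet-lagged minus steady difference was 3.77 for Cidea, 2.64 for Cidec, 1.54 for Plin4, 1.14 for Fitm1, 1.07 for Pparg and 1.13 for Cd36.

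**Figure D3:**
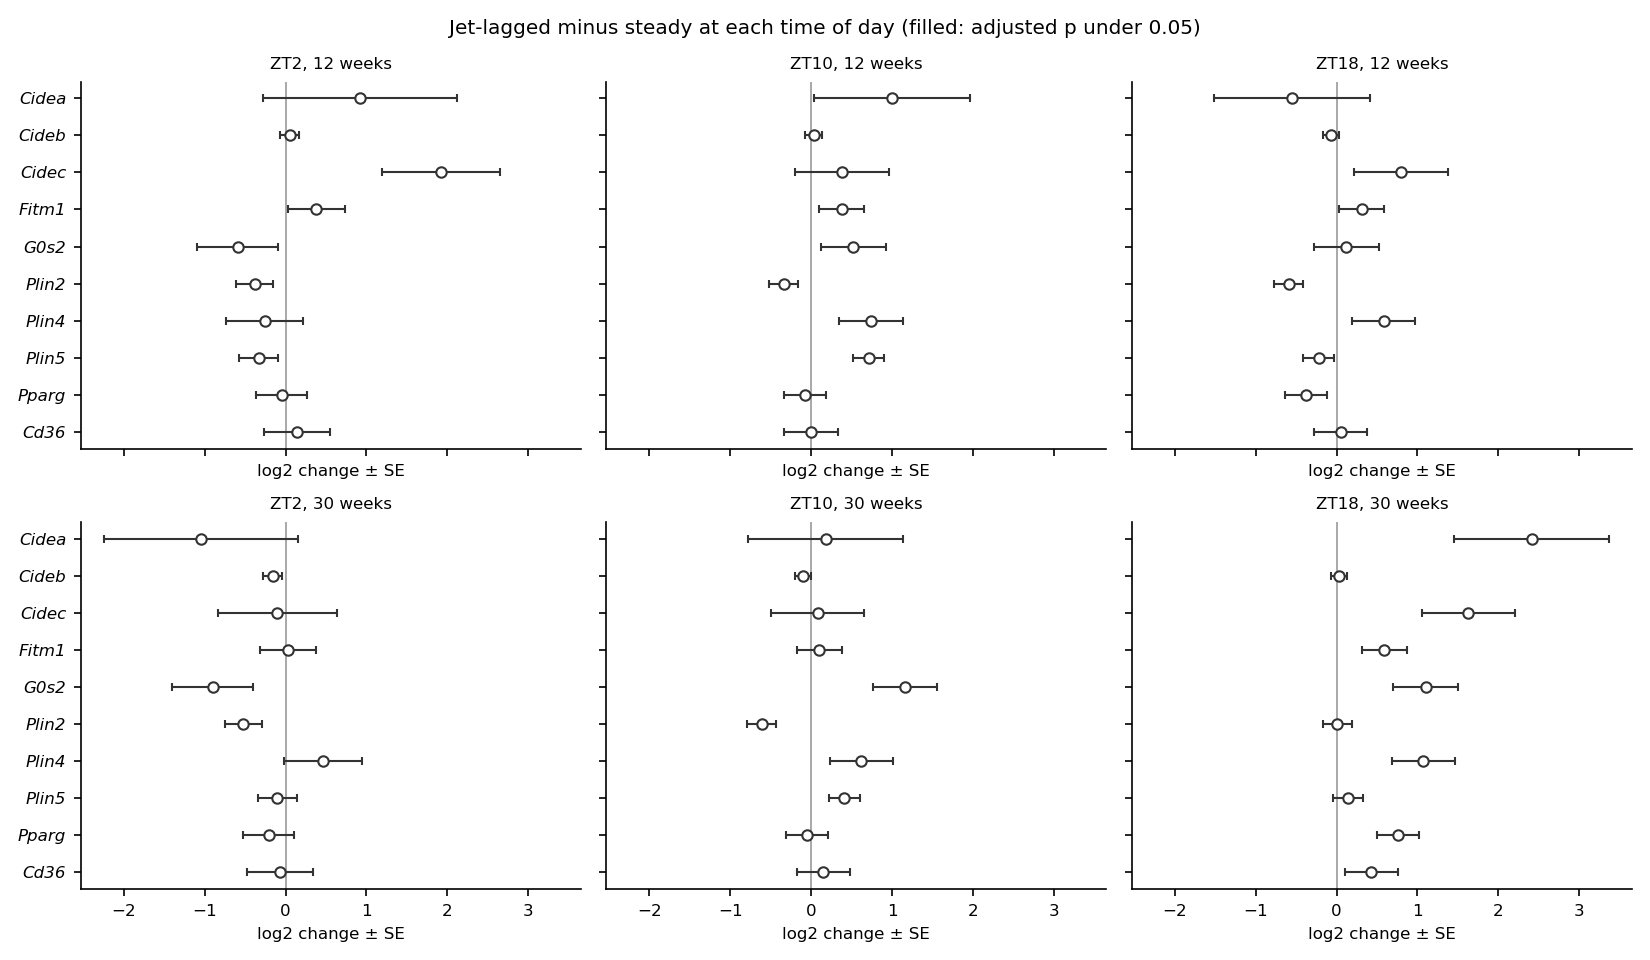
Jet-lagged minus steady difference in log2 signal with its SE (bars) for each gene at ZT2, ZT10 and ZT18, at 12 weeks (upper row, n = 2 or 3 against the same number) and 30 weeks (lower row). None of the points passed at an adjusted p under 0.05, and at ZT18 and 30 weeks all 10 estimates are above 0.

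Time of day was tested within each schedule and age. In steady mice at 12 weeks 4 of 10 genes varied over the 3 times (Cidec, G0s2, Plin4 and Plin5), where 17.4% of all genes did, and at 30 weeks 1 of 10 (Plin5), where 11.2% did. In jet-lagged mice 3 of 10 varied at 12 weeks (G0s2, Plin4 and Plin5), against 5.7% of all genes, and 2 of 10 at 30 weeks (Cidec and G0s2), against 3.62%. By their brightest probes all were highest at ZT18, in the dark phase, except Cidec in steady mice, which was highest at ZT10.

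Plin5 kept its call in steady mice at 12 weeks in all 32 fits without 1 mouse. It read 5.47 and 5.31 at ZT2, 5.21, 5.14 and 4.42 at ZT10, and 6.05, 5.98 and 6.32 at ZT18. The ZT18 livers all lay above the rest, and the fitted means spanned 1.23 (n = 8, adjusted p = 0.000447). At 30 weeks it read 5.39 and 5.81, then 4.87, 5.04 and 5.63, then 5.91, 5.97 and 5.84, a span of 0.75 (adjusted p = 0.0394) that was lost in 12 of 32 fits without 1 mouse. In jet-lagged mice at 12 weeks the trough lay at ZT2 instead, with 5.01 and 5.03, followed by 5.39, 5.59 and 5.76 at ZT10 and 5.99, 5.70 and 6.24 at ZT18. That span was 0.91 (adjusted p = 0.038). The difference in profile between schedules did not pass at 12 weeks (interaction span 1.03, adjusted p = 0.101).

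G0s2, a small protein that inhibits the triglyceride lipase ATGL, varied in 3 of the 4 combinations of schedule and age. In steady mice at 12 weeks it read 2.84 and 2.89 at ZT2, 2.69, 3.83 and 2.87 at ZT10 and 5.03, 4.66 and 3.85 at ZT18. Every ZT18 liver lay above every earlier one, and the span was 1.71 (adjusted p = 0.0128). In steady mice at 30 weeks its span was 0.36 (adjusted p = 0.851), with 1 ZT10 liver at 4.89 beside 3.0 and 3.41. In jet-lagged mice it read 2.99 and 1.27 at ZT2, 3.59, 3.93 and 3.48 at ZT10 and 4.43, 4.96 and 4.71 at ZT18 at 12 weeks, a span of 2.42 (adjusted p = 0.00591). At 30 weeks the jet-lagged livers read 3.16 and 2.83, then 4.52, 5.53 and 5.06, then 5.27, 4.58 and 5.63. There the low values were at ZT2 only, and the span was 2.37 (adjusted p = 0.00524). With the ZT2 mice left out the jet-lagged spans were 1.12 and 0.07 (adjusted p = 0.616 and 0.988), and the interaction with schedule at 30 weeks did not pass (span 2.07, adjusted p = 0.154).

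Plin4 rose from ZT2 to ZT18 at 12 weeks in both schedules. In steady mice it read -1.39 and -0.83, then -0.46, -0.23 and -0.71, then 0.16, 0.11 and 0.75, a span of 1.59 (adjusted p = 0.037). In jet-lagged mice it read -1.80 and -1.38, then -0.13, 0.50 and 0.36, then 1.00, 0.81 and 1.48, a span of 2.43 (adjusted p = 0.00419). No ZT18 liver overlapped with a ZT2 or ZT10 liver in either schedule, and the spans did not differ by the interaction test (adjusted p = 0.627). At 30 weeks its spans were 1.04 and 1.57 (adjusted p = 0.235 and 0.0967).

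Cidec had the largest span of the 10 in steady mice at 12 weeks. It read -3.60 and -2.46 at ZT2, 0.57, -0.03 and -0.35 at ZT10, and -0.77, -0.92 and -0.06 at ZT18, a span of 3.29 (adjusted p = 0.00257). Both ZT2 livers lay below all others, and the lower was not well above background. Dropping this dim liver, which leaves a single steady mouse at ZT2, gave a span of 2.66, and dropping the other gave 3.91. Over ZT10 and ZT18 alone the span was 0.37 (adjusted p = 0.767), so the call rested on the ZT2 livers. The second Cidec probe did not show the trough at ZT2. It read -3.00 and -2.89 at ZT2, -2.11, -2.67 and -2.78 at ZT10, and -3.08, -4.20 and -2.47 at ZT18. Its group means were -2.95, -2.52 and -3.25, lowest at ZT18. With the mean of both probes the span was 1.83 (adjusted p = 0.0894), and with another background correction (normexp on the median signals) it was 1.90 (adjusted p = 0.0302). In jet-lagged mice at 30 weeks Cidec read -1.25 and -1.39, then 0.57, 0.30 and 2.96, then 1.28, 1.01 and 2.46, a span of 2.83 (adjusted p = 0.032).

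The remaining genes did not pass a test of time. Cidea had the largest span among them, 4.11 in jet-lagged mice at 30 weeks, from -2.47 and -2.82 at ZT2 to 1.41, -0.12 and 1.77 at ZT18, with -0.95, -2.17 and 3.09 between (adjusted p = 0.0819). One ZT10 liver of that group stood far above its fellows in Cidea (3.09) and Cidec (2.96). Its fat level was the highest of all livers (1.74), with Adipoq at 0.47. Plin2 was highest at ZT2 in 3 of the 4 combinations, with spans of 0.30 to 0.53 (adjusted p = 0.178 to 0.591). The spans of Pparg were 0.33 and 0.42 under the steady schedule (12 and 30 weeks) and 0.02 and 0.84 under jet lag. None of the 10 passed the schedule by time interaction in limma, which 1.9% of all genes passed at 12 weeks and 1.97% at 30 weeks. At an unadjusted p under 0.05 it was 1 of 10 at each age (Plin5 and G0s2), where 3457 and 3192 of all 23109 genes met that limit.

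Muscle markers varied with time as well. In steady mice their mean went from -3.05 at ZT2 and -2.99 at ZT10 to 1.1 at ZT18 at 12 weeks. At 30 weeks it went from -2.16 and -3.22 to 1.53. In jet-lagged mice at 30 weeks it went from -4.31 at ZT2 to 0.16 and 1.92. In jet-lagged mice at 12 weeks the muscle mean was highest at ZT10 instead, at -2.68, 0.45 and -1.89 over the 3 times. With muscle and acinar markers as covariates, Plin5 and Cidec still passed in steady mice at 12 weeks (spans 1.07 and 3.20, adjusted p = 0.00942 and 0.00837), and Plin4 and G0s2 did not (1.07 and 1.85, adjusted p = 0.309 and 0.0544). The 30-week Plin5 call in steady mice was lost with them (span 0.48, adjusted p = 0.459). In jet-lagged mice at 12 weeks Plin4, G0s2 and Plin5 all passed with those covariates, and at 30 weeks neither Cidec (2.08, adjusted p = 0.377) nor G0s2 (2.55, adjusted p = 0.0521) did. The fat markers moved with time too, in jet-lagged mice at 12 weeks from -1.79 at ZT2 to 0.27 at ZT10 and -0.24 at ZT18. With the fat level as the covariate, the calls of Plin5 (0.82, adjusted p = 0.075) there, of Cidec in jet-lagged mice at 30 weeks (2.01, adjusted p = 0.243) and of Plin4 at 12 weeks (1.18, adjusted p = 0.189) and Plin5 at 30 weeks (0.68, adjusted p = 0.0689) in steady mice were lost. Beyond such fits the part of other tissue in these results was not tested.

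Age was compared within each schedule, again over the mean of the 3 times. All 10 estimates were positive in both schedules, higher at 30 than at 12 weeks. In steady mice 1 of 10 passed (Fitm1), where 0.9% of all genes did, and the median over the 10 was 0.38 against 0.01 over all genes. In jet-lagged mice 5 of 10 passed (Cidea, Plin4, G0s2, Fitm1 and Pparg), where 5.31% of all genes did, with a median of 0.56 against -0.04. The schedule by age test, which asks whether these changes differed, passed for none of the 10 in limma and for 0.00865% of all genes. At an unadjusted p under 0.05 it was 0 of 10, where 3201 of all 23109 genes met that limit.

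Cidea had the largest change with age. In jet-lagged mice it ranged from -3.85 to -1.41 around a median of -2.93 at 12 weeks and from -2.82 to 3.09 around -0.53 at 30 weeks, and 5 of the 8 older livers lay above all younger ones. It rose by 2.31 ± 0.56 (SE, n = 8 against 8, adjusted p = 0.0179). In steady mice it ranged from -4.82 to -0.82 at 12 weeks and from -3.41 to 0.59 at 30 weeks, a difference of 2.25 ± 0.56 that missed the threshold (adjusted p = 0.0616). The changes in the 2 schedules differed by 0.06 ± 0.80 (95% CI -1.60 to 1.71). Of the younger livers, 7 of 8 jet-lagged and 5 of 8 steady ones had Cidea well above background. With normexp the change in jet-lagged mice was 1.19 (adjusted p = 0.0344), and the cause of the smaller size was not tested. The brown fat markers ranged from -0.94 to 2.13 (median 0.41) in jet-lagged mice at 12 weeks and from -0.94 to 3.68 (median 1.03) at 30 weeks, and from -1.50 to 2.16 (median -0.05) and -1.24 to 2.53 (median 0.71) in steady mice. Their part in the change of Cidea was not tested.

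Fitm1 passed in both schedules. In steady mice it ranged from 1.87 to 3.05 around 2.25 at 12 weeks and from 2.07 to 3.58 around 3.08 at 30 weeks, and it rose by 0.70 ± 0.16 (adjusted p = 0.0385). In jet-lagged mice it ranged from 2.08 to 3.24 around 2.70 and from 2.43 to 3.87 around 3.33, and it rose by 0.59 ± 0.16 (adjusted p = 0.0375). In each schedule 5 of the 8 older livers lay above all younger ones. When single mice were left out the steady call failed in 11 of 32 fits, and it failed with the fat level as a covariate (0.62, adjusted p = 0.1). In steady mice the fat markers ranged from -2.10 to 0.77 (median -1.11) at 12 weeks and from -2.22 to 1.30 (median 0.10) at 30 weeks, and the muscle markers from -4.62 to 1.48 (median -2.17) and from -4.38 to 2.24 (median -0.75).

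Pparg in jet-lagged mice ranged from 1.48 to 1.96 at 12 weeks, a narrow band, and from 1.82 to 2.76 at 30 weeks, with 6 of the 8 older livers above all younger ones. It rose by 0.53 ± 0.15 (adjusted p = 0.0427), against 0.19 ± 0.15 in steady mice (adjusted p = 0.759), and the difference between the 2 was 0.34 ± 0.22 (95% CI -0.11 to 0.79). Plin4 rose by 0.92 ± 0.23 in jet-lagged mice (adjusted p = 0.0194), from a median of 0.43 to 1.26. G0s2 rose by 0.87 ± 0.23 (adjusted p = 0.0305), from a median of 3.76 to 4.82. In steady mice these differed by 0.56 ± 0.23 and 0.43 ± 0.23, which did not pass. Cidec differed by 1.20 ± 0.34 in steady and 0.70 ± 0.34 in jet-lagged mice (adjusted p = 0.129 and 0.236), Cd36 by 0.32 ± 0.19 and 0.43 ± 0.19, Plin2 by 0.12 ± 0.11 and 0.19 ± 0.11, Plin5 by 0.09 ± 0.11 and 0.19 ± 0.11, and Cideb by 0.10 ± 0.06 and 0.01 ± 0.06. The second Cidec probe had steady means of -2.95, -2.52 and -3.25 at 12 weeks and -3.33, -1.79 and -2.27 at 30 weeks (ZT2, ZT10, ZT18). It was thus lower with age at ZT2 and higher at ZT10 and ZT18. Under jet lag its means were -4.57, -2.2 and -2.42 at 12 weeks and -3.03, -0.39 and -1.39 at 30 weeks, higher with age at each time.

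The jet-lagged calls for age depended on few mice too. Without mouse 1 of the ZT2 group at 30 weeks 0 of the 5 passed, and when single mice were left out the Pparg call failed in 15 of 32 fits, those of G0s2 and Fitm1 in 9 each and those of Cidea and Plin4 in 2 each. No slide held both ages at the same schedule and time, so there is no within-slide value. With the slide as a fixed block Cidea and G0s2 passed (2.23 and 0.84, adjusted p = 0.0301 and 0.033). The fat markers ranged from -1.87 to 0.82 (median -0.31) in jet-lagged mice at 12 weeks and from -2.55 to 1.74 (median -0.09) at 30 weeks. The muscle markers ranged from -3.77 to 1.63 (median -1.03) and from -4.37 to 3.59 (median -0.18). With the fat level as a covariate Cidea, Plin4 and G0s2 still passed (2.09, 0.86 and 0.91, adjusted p = 0.0158, 0.0255 and 0.0307), and Fitm1 and Pparg missed the threshold (0.55 and 0.51, adjusted p = 0.0512 and 0.0609).

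Livers of 1 group also differed among themselves. Each mouse's deviation from its group mean was set against that of Cidec, by its main probe only. Since Cidec was chosen for this after its values were seen, these correlations are a description of the 32 mice, with no test. Plin4 had r = 0.794 (rho = 0.803), Cd36 r = 0.780 (rho = 0.766), Cidea r = 0.738 (rho = 0.680) and Fitm1 r = 0.592 (rho = 0.550).

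Without the 2 mice farthest from the median of Cidec these r were 0.738, 0.722, 0.636 and 0.508, and with the slide means removed 0.780, 0.888, 0.730 and 0.656. Pparg had r = 0.503 (rho = 0.446), Plin5 0.398 and Plin2 0.394 in r, and G0s2 (r = -0.063) and Cideb (r = -0.117) lay near 0. Within ages, Plin4 and Cd36 had r = 0.741 and 0.736 at 12 weeks and 0.820 and 0.858 at 30 weeks. Cidea had 0.268 and 0.919, Fitm1 0.327 and 0.742, and Pparg -0.103 and 0.858, and the difference between ages was not tested. Fat markers moved with the same livers, with r = 0.569 for the deviations of Cidec, 0.585 for Cidea, 0.451 for Plin4 and 0.251 for Cd36.

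**Figure D4:**
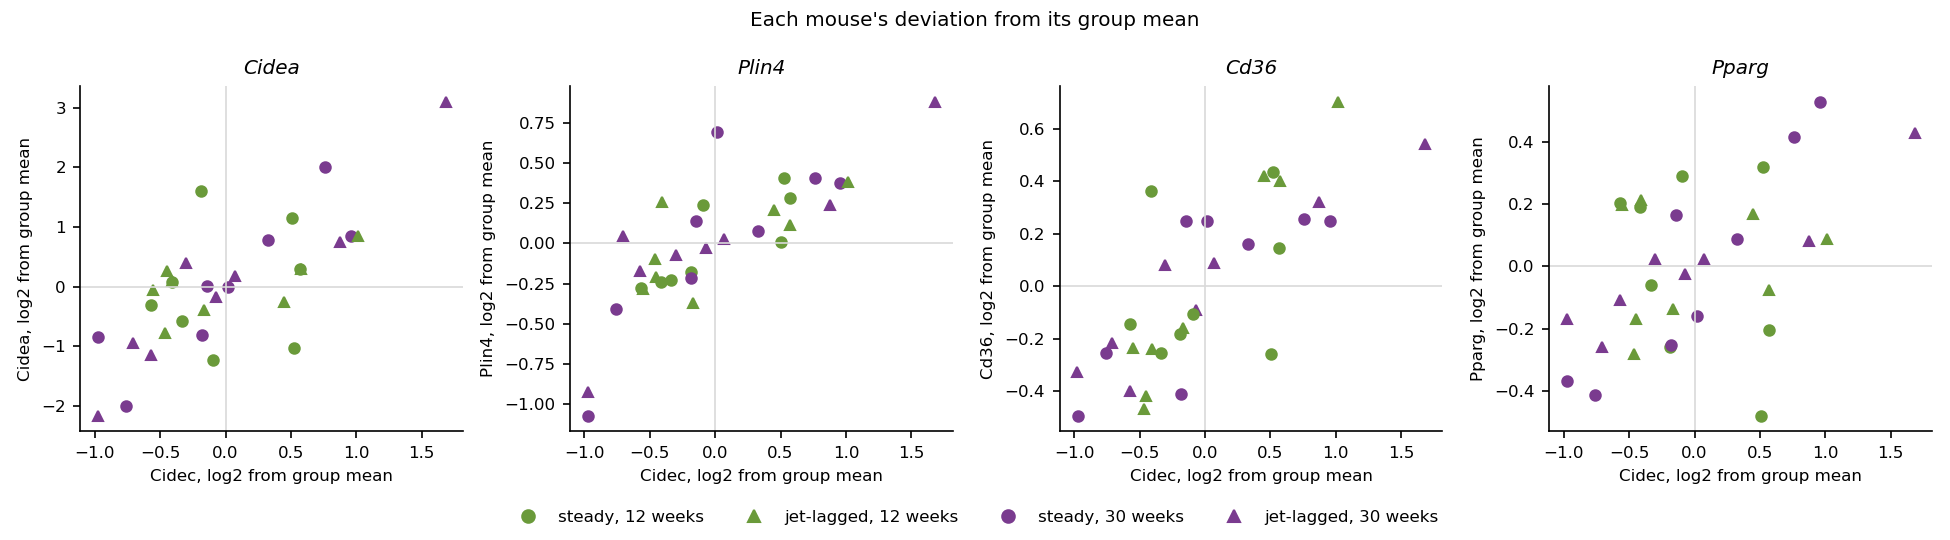
Each mouse's log2 deviation from its group mean for Cidea, Plin4, Cd36 and Pparg (vertical axes) against that of Cidec (horizontal axes), with 12 weeks in green, 30 weeks in purple, circles for steady and triangles for jet-lagged mice. Cidea and Pparg follow Cidec closely in the 30-week mice (r = 0.919 and 0.858), while in the 12-week mice Cidea follows it loosely (r = 0.268) and Pparg does not (r = -0.103).

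**Figure D5:**
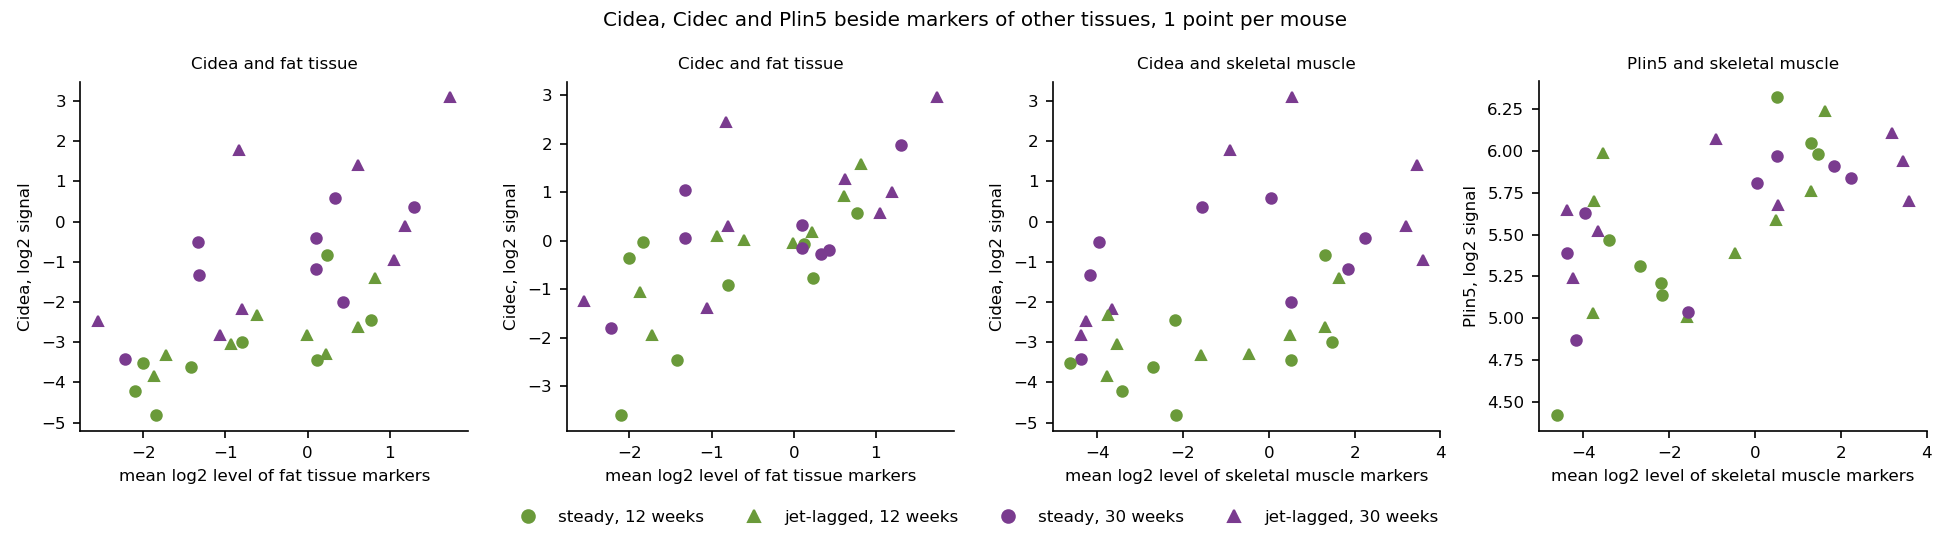
Log2 signal of Cidea and Cidec against the mean log2 level of fat tissue markers, and of Cidea and Plin5 against that of skeletal muscle markers, 1 point per mouse, colours and shapes by age and schedule. Cidea and Cidec tend upwards with the fat markers (r = 0.622 and 0.684 over the 32 livers), and the jet-lagged 30-week mouse at a fat level of -0.83 has Cidea at 1.77 and Cidec at 2.46.

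By rule, the 3 named genes most alike to each of these were those with the highest Pearson correlation over the 32 arrays among 13417 genes, a description in which groups, slides and shared RNA all enter. Plin4 was most like Pex11a, a peroxisome division gene (r = 0.887), Gpat4, a glycerol phosphate acyltransferase (0.846), and Cidec (0.834). Fitm1 was most like Lgals1, a galectin (0.909), Mogat1, a monoacylglycerol acyltransferase (0.892), and Pmm1 (0.874). Mogat1 also led for Cd36 (0.863), before Lgals1 (0.811) and Tafa2 (0.807). Cidea was most like Fitm1 (0.829), Clstn3 (0.827) and Lgals1 (0.806), and Pparg like Clstn3 (0.766), Fitm1 (0.762) and Lgals1 (0.748), so that Clstn3 and Lgals1 stood in both lists. Cidec was most like Mfsd2a, a lysophosphatidylcholine transporter (0.860), Osbpl3 (0.846) and Gpc1 (0.842). The rest had partners outside this circle. Plin2 was most like Elovl5, an elongase of polyunsaturated fatty acids (0.830), Plin5 like Samd1 (0.895), Cideb like Nabp2 (0.875) and G0s2 like Col27a1 (0.789).

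The other genes of droplets and lipolysis were read from a list of 28, of which 26 were tested. In the schedule comparison over the 3 times 1 fell at 12 weeks, Plin3, the ubiquitous perilipin (-0.27 ± 0.08, adjusted p = 0.0458), where 4.44% of all genes passed. At 30 weeks 2 rose and 3 fell, with median 0.04, where 6.25% of all genes passed, 409 higher and 1035 lower. Lpin1, a phosphatidate phosphatase, rose by 0.68 ± 0.19, and Plin3 (-0.44 ± 0.08), Acsl3, an acyl-CoA synthetase of nascent droplets (-0.43 ± 0.09), and Abhd5, the ATGL coactivator (-0.27 ± 0.05), fell. The other that rose was Hsd17b13 (0.20 ± 0.06). At ZT18 Lpin1 was higher under jet lag by 1.38 ± 0.33 at 12 weeks and 2.48 ± 0.33 at 30 weeks, and the lipase Pnpla2 (ATGL) by 0.57 ± 0.15 and 0.63 ± 0.15. More of the list fell than rose at ZT18 and 12 weeks, 4 against 2, namely the acyltransferase Agpat2 (-0.64 ± 0.14), the acyl-CoA synthetase Acsl4 (-0.51 ± 0.13), Abhd5 (-0.48 ± 0.09) and Hilpda, an inhibitor of ATGL (-0.47 ± 0.13). Over all genes 2.83% passed at ZT18 and 12 weeks, 436 lower and 218 higher, so the list leaned as all genes did. At ZT18 and 30 weeks 3.47% of all genes passed. At 30 weeks 1 fell there, Acsl3 (-0.55 ± 0.15). At ZT2 and 30 weeks Pnpla3, a lipase-like droplet protein, differed by -3.62 ± 0.79 (n = 2 against 2, adjusted p = 0.0203) and Abhd5 by -0.50 ± 0.12, and at ZT10 and 30 weeks Plin3 by -0.62 ± 0.13. Time of day moved 11 of the 26 under the steady schedule at 12 weeks and 8 at 30 weeks, where 17.4% and 11.2% of all genes varied. Under jet lag it moved 4 and 2, where 5.7% and 3.62% of all genes varied, so the share over all genes was lower there too. Lpin1 had the largest spans in steady mice (2.10 and 2.13, highest at ZT10). With age, 0 of 26 passed in steady mice in limma (2 at an unadjusted p under 0.05), and in jet-lagged mice Abhd5 fell by 0.40 on the log2 scale and Hsd17b13, a droplet dehydrogenase, rose by 0.24. Over all genes 0.9% passed the age comparison in steady and 5.31% in jet-lagged mice. In steady mice 2257 of all 23109 genes met the unadjusted limit.

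Among 14 partners and cofactors of PPARG, all tested, the sister receptor Ppard moved most. It was lower under jet lag over the 3 times, with differences of -1.05 ± 0.09 at 12 weeks and -1.23 ± 0.09 at 30 weeks (adjusted p = 1.8e-06 and 7.94e-08). The difference was called at ZT2 (-1.82 ± 0.19 and -2.37 ± 0.19) and ZT18 (-1.65 ± 0.15 and -1.40 ± 0.15), and the interaction with time passed at both ages (adjusted p = 5.08e-05 and 0.000138). Ppara, the main PPAR of hepatocytes, rose by 0.36 ± 0.10 at 12 weeks. In steady mice at 12 weeks 8 of the 14 varied with time of day, where 17.4% of all genes did. Among the 8 were Ppargc1b and Ppara, both highest at ZT10. With age in jet-lagged mice Cebpa, a factor that acts with PPARG in fat cells, rose by 0.27 ± 0.06 and the mediator subunit Med1 changed by -0.47 ± 0.11, and in steady mice 0 of 14 passed in limma (0 at an unadjusted p under 0.05). Of all genes 5.31% passed that comparison in jet-lagged and 0.9% in steady mice.

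Of 14 other PPARG targets 12 were tested, and 5 of the 14 were also on the fat marker list. Over the 3 times at 12 weeks Pck1, a gluconeogenic enzyme, and Angptl4, an inhibitor of lipoprotein lipase, rose under jet lag (0.90 ± 0.20 and 0.66 ± 0.17), and at 30 weeks 0 of 12 passed in limma (3 at an unadjusted p under 0.05). Over all genes 4.44% and 6.25% passed these comparisons. At ZT18 and 30 weeks Slc2a4, a glucose transporter of muscle and fat, and Angptl4 were higher by 2.02 ± 0.46 and 1.04 ± 0.28. With age 0 of 12 passed in either schedule (1 and 2 at an unadjusted p under 0.05). Of 13 genes of fatty acid uptake and binding, all tested, Acsl5, an acyl-CoA synthetase, was lower under jet lag at both ages (-0.54 ± 0.06 and -0.49 ± 0.06) and Slc27a2 was higher at 12 weeks (0.31 ± 0.07). With age 0 of 13 passed in limma in either schedule (1 and 1 at an unadjusted p under 0.05). Of 8 genes of VLDL assembly 0 passed the schedule means or the age comparisons in limma (2 in each at an unadjusted p under 0.05). In steady mice at 12 weeks 3 of the 8 varied with time, where 17.4% of all genes did. In these age comparisons 0.9% (steady) and 5.31% (jet-lagged) of all genes passed. An unadjusted p under 0.05 in limma was met by 4784 and 4552 of all 23109 genes in the schedule means (12 and 30 weeks). In the age comparisons it was met by 2257 (steady) and 4991 (jet-lagged).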

How the data were processed

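Total RNA of 32 livers, each from a separate mouse, was hybridised in Cy3 to Agilent arrays (design 028005) on 8 slides of 4. The deposited intensity values were background-subtracted within each array by the authors with Feature Extraction, version 11.0.1.1 per the file headers and 9.1 per the submitters' processing notes. The authors' deposited log2 table (15148 probes, normalized with a batch effect removed, per the series design text; its batch and centring are unknown) served as an alternative. Its column medians lay between 9.824 and 9.896, and each column matched its own array best (r at least 0.992).

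Processed signals were scaled to the 75th percentile of each array and put on a log2 scale. Control spots were left out, no spot was saturated, and probes were kept if well above background in every mouse of some group (30487 probes, 23109 genes, the brightest probe per gene). Group means of the 12 groups were fitted in limma 3.58.1 (R 4.3.3) with slide as a random block (correlation 0.2538), and p-values were adjusted by Benjamini-Hochberg over all genes, with calls at 0.05. Time of day and its interaction were tested by moderated F, and a span is the highest minus the lowest fitted value over the 3 times. The code was tested on simulated data.

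The normexp alternative used median signals, because no mean signal column was in the files. The genes, lists and markers were chosen with earlier results of these data known. The rule was to name all 10 genes, up to 4 called genes per list and comparison and the 3 genes most alike to each. Some called list genes and most alike genes within the rule are not printed. Hsd17b13 in the 30-week schedule comparison and Abhd5 and Hilpda at ZT18 and 12 weeks were named beyond it. The number of arrays limits the precision.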

Additional observations from a re-analysis of the deposited data

How the results depend on the processing

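No called schedule or age difference changed sign under the settings run (spans over times have no sign, and estimates that did not pass were not followed). Counts below are of the 10 genes passing. The main counts were 1 and 1 (schedule means at 12 and 30 weeks), 4, 1, 3 and 2 (time of day in steady mice at 12 and 30 weeks, then jet-lagged), 1 and 5 (age, steady and jet-lagged) and 0 elsewhere. Without the slide block the schedule counts were 0 and 0, steady time at 12 weeks 3 and age 0 and 1. With slide as a fixed block the 30-week schedule count was 0, steady time 3 and 0, jet-lagged time 1 and 1, and age 0 and 2. Without the filter the 30-week schedule count was 0, steady time 3 and 0, jet-lagged time 2 and 1, and age 0 and 3. With quantile normalization the 30-week schedule count and steady time at 30 weeks were 0. In the authors' deposited table the 30-week schedule count was 0, jet-lagged time 4 and 3 and age 0 and 4. Steady time at 12 weeks was 3 there (Cidec, Plin5 and, unlike in the main fit, Plin2), and G0s2 and Plin4 did not pass. In that table G0s2 passed at ZT10 and in the interaction at 30 weeks (1 each). With muscle and acinar covariates the schedule counts were 0 and 0, steady time 2 and 0, jet-lagged time 3 and 0 and age 1 and 4. Adding fat gave jet-lagged time 2 and 0 and age 0 and 1, the rest as before. With fat alone steady time was 3 and 0, jet-lagged time 2 and 1 and age 0 and 3. With the mean of both probes steady time at 12 weeks was 3. Without ZT2 mice steady time at 12 weeks was 2, jet-lagged time 0 and 0 and age 0 and 2. Without the 14 arrays of muscle level above 0 the schedule counts were 0 and 0, steady time 1 and 0, jet-lagged time 0 and 0 and age 0 and 1. That setting keeps 18 arrays and no steady ZT18 mouse, so its time and schedule tests lack ZT18 on the steady side and say nothing about stability. The normexp, fat and muscle-level settings were added after seeing the data, and other causes were not tested.

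The mouse numbers did not pair samples (mean r of deviations -0.0187 for same-numbered and 0.00975 for other mice). With the mouse number as replicate block the schedule counts were 2 and 2, jet-lagged time at 12 weeks 2 and the steady age count 2.

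Leaving out 1 mouse at a time, counts ranged from 0 to 2 for both schedule means, 0 to 1 and 0 to 2 at ZT10 (12 and 30 weeks), 2 to 4, 0 to 2, 1 to 3 and 0 to 3 for time of day, 0 to 1 for the 12-week interaction, and 0 to 3 and 0 to 5 for age. Other counts stayed at 0. Low signal limits Cidea and Cidec.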
